A study of Mus musculus with 2 samples.

Results

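The dual-specificity MAP kinase phosphatases were followed as 9 genes, Dusp1, Dusp2, Dusp3, Dusp4, Dusp5, Dusp6, Dusp7, Dusp10 and Dusp16, out of 18193 genes measured. Every probe set whose single platform gene symbol was in this group was taken, which gave 15 probe sets. Their signals were read on 2 Affymetrix arrays of peritoneal macrophages from male C57BL/6 mice. The cells of 1 array had received Control siRNA and those of the other HDAC9 siRNA, directed at a histone deacetylase of class IIa, and RNA was taken 48 h after transfection. The sources used here do not give the age of the mice or whether animals were pooled. The design asks which transcripts differ after HDAC9 knockdown. Each group had 1 array. The spread between cultures is therefore unknown, no test was made, and each difference below is between 2 arrays.

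MAP kinases (ERK, JNK and p38) are switched on by phosphorylation of a threonine and a tyrosine in their activation loop. Dual-specificity phosphatases remove both phosphates, and many are themselves transcribed in response to the kinases they switch off, which makes them feedback inhibitors. In macrophages some of them limit the cytokine output that follows Toll-like receptor signalling, with Dusp1 the best known example.

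The arrays had 51.4% and 53.6% of their probe sets above background, control array first. Background was set at a log2 signal of 6.34, the 95th percentile of 80 olfactory and vomeronasal receptor probe sets. Hdac9 itself was close to it: by probe set 1434572_at its log2 signal was 6.88 after control siRNA and 5.69, under the floor, after HDAC9 siRNA, a bound of at least 1.46-fold lower. Its other probe set was below background on both arrays. Of 12 macrophage markers, 11 were above background on each array, among them Adgre1, the F4/80 antigen, at log2 signals of 12.71 and 12.72. Timd4, a marker of resident peritoneal macrophages, was below background on both arrays. Gata6 (10.74 and 11.20) and Icam2 (6.97 and 7.37), which also mark resident peritoneal macrophages, were above background on both. The 4 T cell markers measured, Cd3d, Cd3e and Cd3g among them, were below background on both arrays. Of 4 B cell markers measured, only Pax5 (6.03 and 6.74) was above background, on the HDAC9 siRNA array alone. Of 3 NK cell markers measured, only Prf1 (6.63 and 6.70) was above background, on both arrays. Of 4 neutrophil markers measured, S100a8 (9.13 and 8.91) and Csf3r (8.31 and 8.76) were above it. Of 5 mast cell and eosinophil markers only Siglecf was, at 9.21 and 8.13, and the summed linear signal of these 5 went from 698 to 335, the widest shift among the 8 marker lists (-1.06 on the log2 scale). All 6 fibroblast markers and all 8 mesothelial markers were above background on both arrays.

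None of the 9 phosphatase genes differed by 2-fold between the arrays. For genes with several probe sets the brightest was taken, and all 9 genes were above background on both arrays. Of all 12090 genes above background, 1.81% passed 2-fold, 1.44% higher and 0.372% lower, so a count of 0 among 9 genes is near the background. At 1.5-fold the count was also 0, against 10.6% of all genes. The log2 difference, HDAC9 siRNA minus control, was above 0 for 6 genes and below 0 for 3, against 54.1% of all genes above 0. After loess scaling it was above 0 for 4 of the 9, so the group had no settled direction. Its median was 0.09, beside 0.03 over all genes. The median over all genes fell with signal: in 4 bins of mean signal, dimmest first, it was 0.15, 0.09, 0.02 and -0.05. Dusp10, the median gene of the group, lay in the bin with 0.09.

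The differences were also small against the scatter within the arrays. That scatter, taken from genes with several probe sets, was 0.29 log2 for a single probe set. It leaves out differences between cultures. Of the 9 genes, 1 differed by more than this, Dusp4, against 34.3% of all genes above background.

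**Figure D1:**
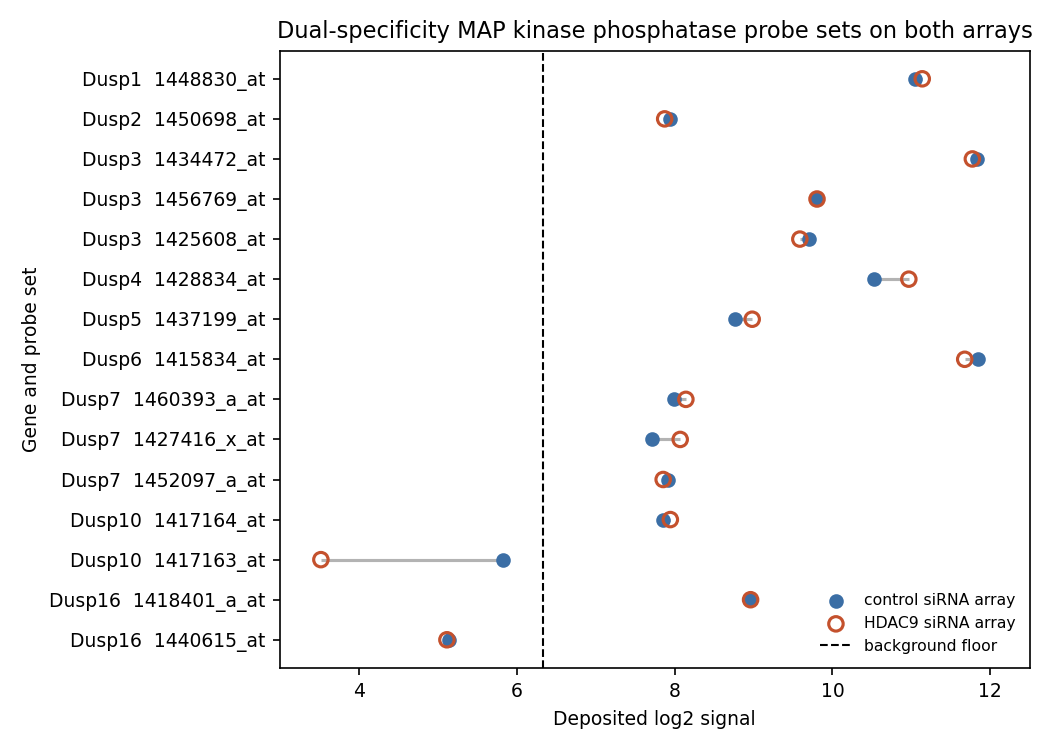
Deposited log2 signal (horizontal axis) of each of the 15 probe sets (rows), with the control siRNA array as filled circles, the HDAC9 siRNA array as open circles and the background floor of 6.34 as a dashed line. The 13 probe sets to the right of the floor have pairs that lie close together, with the widest gap at Dusp4, and the wide gap of 1417163_at for Dusp10 lies wholly below the floor.

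The inducible nuclear phosphatases were Dusp1, Dusp2, Dusp4 and Dusp5. Dusp1, an immediate-early gene whose product acts mainly on p38 and JNK, had log2 signals of 11.04 after control siRNA and 11.14 after HDAC9 siRNA. In linear signal this was 2111 and 2254, a 1.07-fold difference. Dusp2, expressed mainly in blood cells, had log2 signals of 7.94 and 7.88, a difference of -0.07. These 2 genes thus lay within 0.10 log2 of equality, in opposite directions, and each was read by 1 probe set.

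Dusp4, a nuclear phosphatase closely related to Dusp1, had the widest difference of the 9. Its log2 signal was 10.53 after control siRNA and 10.97 after HDAC9 siRNA, or 1481 and 2003 in linear signal, a difference of 0.44 (1.35-fold higher). All genes above background were cut into 4 bins of equal size by mean signal. In the brightest bin, where the 5th and 95th percentiles were -0.34 and 0.37, 96.5% of genes had a lower difference than Dusp4 and 5.23% had one as large in either direction. The single-probe-set scatter in that bin was 0.20. Dusp4 lay near the lower edge of the bin, with a log2 mean signal of 10.77 against an edge of 10.64. In the next bin down the 95th percentile was 0.56, above the Dusp4 difference, and the scatter was 0.27. Dusp4 was read by 1 probe set, so no second probe set bears on its value. Over the same arrays the summed linear signal of the 6 fibroblast markers went from 39317 to 53152 (0.43 on the log2 scale). Within that list the collagen genes Col1a1 (1.80), Col3a1 (1.46) and Col1a2 (0.43) and the proteoglycan gene Lum (0.58) were higher, while Dcn was at 0.13 and Pdgfra at -0.10. The sum of the 8 mesothelial markers went from 9273 to 10622 (0.20), with Upk3b, Wt1 and Lrrn4 higher and the other 5 lower, down to -1.11 for Msln. The sum of the 12 macrophage markers went from 90088 to 87940 (-0.03). Within that list Gata6 (0.46), Fcgr1 (0.43), Icam2 (0.40) and Mertk (0.37) were higher and Cd14 (-0.46) was lower. The others above background lay between -0.15 (Csf1r) and 0.14 (Spi1). The part of these marker lists in the Dusp4 difference was not tested. In such bulk samples fewer cells of a type and less RNA per cell cannot be told apart. The 3 genes nearest to Dusp4 in their pair of log2 signals, among 10731 genes above background on both arrays, were Ltbp3, Tecpr1 and Il6st, at distances of 0.020, 0.025 and 0.038. With so many genes compared on 2 signals, near neighbours can arise from the density of genes alone, so no likeness was drawn from them.

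Dusp5, a nuclear phosphatase selective for ERK, had log2 signals of 8.77 and 8.98, a difference of 0.21. It was higher on the HDAC9 siRNA array by less than the single-probe-set scatter, and 54.9% of the genes in its bin of mean signal differed by as much in either direction.

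Promoter letters are shown for Dusp1 and Dusp5, since they hold textbook elements through which signalling switches such genes on. The sequences are from RefSeq, build GRCm38.p6, and run from 250 bases before the start site to 50 after it, on the gene's strand. Of the 9 genes, 8 matched, and Dusp4 was not listed. Capitals mark the cyclic AMP response element TGACGTCA, its core TGACG on either strand, and the CArG box bound by serum response factor. Dusp1 lies on the minus strand at chr17:26508423-26508722 and Dusp5 on the plus strand at chr19:53528895-53529194.
Dusp1: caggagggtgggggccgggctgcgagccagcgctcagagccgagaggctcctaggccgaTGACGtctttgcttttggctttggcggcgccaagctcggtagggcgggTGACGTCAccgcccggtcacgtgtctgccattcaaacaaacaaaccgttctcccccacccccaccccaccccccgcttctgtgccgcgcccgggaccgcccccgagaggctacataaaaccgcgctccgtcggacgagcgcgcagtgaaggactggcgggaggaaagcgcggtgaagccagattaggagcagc
Dusp5: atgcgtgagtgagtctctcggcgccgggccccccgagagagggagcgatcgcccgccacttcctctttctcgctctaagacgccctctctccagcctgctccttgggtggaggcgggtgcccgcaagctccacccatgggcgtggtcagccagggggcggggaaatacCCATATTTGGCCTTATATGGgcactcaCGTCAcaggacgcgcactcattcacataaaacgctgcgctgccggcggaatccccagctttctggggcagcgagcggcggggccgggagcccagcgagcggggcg

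The full element TGACGTCA was found in 1 of the 8 promoters, that of Dusp1, 143 bases before the start site. Of 32851 RefSeq promoters of the same length, 1.79% held it on either strand. The core TGACG, which the full element contains on both strands, was found in 4 of 8, those of Dusp1, Dusp2, Dusp5 and Dusp16, against 20.8% of all. CArG boxes were found in 1 of 8, that of Dusp5, in which 2 stand end to end from 82 and 72 bases before the start site, against 1.63% of all. A match describes the letters and says nothing of binding in these cells.

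The cytoplasmic phosphatases selective for ERK were Dusp6 and Dusp7. Dusp6, a standard transcriptional readout of ERK activity, had log2 signals of 11.85 and 11.68, or 3690 and 3273 in linear signal. Its difference of -0.17 was the lowest of the 9 genes, and 35.2% of the genes in its bin of mean signal differed by as much in either direction. Dusp7 was read by 3 probe sets, which did not share a direction. Probe set 1460393_a_at had linear signals of 256 and 283, a log2 difference of 0.15. In log2 signal, probe set 1427416_x_at went from 7.71 to 8.07, a difference of 0.36, and 1452097_a_at from 7.92 to 7.86, a difference of -0.06. The 0.36 of 1427416_x_at was beyond the 0.29 scatter over all genes and within the 0.37 of its own bin of mean signal. Names that end in _x_at mark sets with probes that may read other transcripts. Dusp6 and Dusp7, which share a substrate, thus had small differences in opposite directions by their brightest probe sets.

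Dusp10 and Dusp16 act mainly on JNK and p38. For Dusp10, probe set 1417164_at had log2 signals of 7.86 and 7.95, a difference of 0.09. Its other probe set, 1417163_at, had 5.83 and 3.52. That deposited difference of -2.31 is the widest among the 15 probe sets, but both signals were below background, so no ratio was drawn from it. For Dusp16, 1418401_a_at had log2 signals of 8.95 and 8.96, a difference of 0.01. Its other probe set, 1440615_at, had 5.15 and 5.12, under the floor. The pair was therefore near equality wherever it could be read.

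Dusp3, a small phosphatase that lacks the kinase-binding domain of the others, was read by 3 probe sets above background. Its brightest, 1434472_at, had log2 signals of 11.84 and 11.77, or 3656 and 3500 in linear signal, a difference of -0.06. The others, 1456769_at and 1425608_at, had differences of 0.01 and -0.12. All 3 probe sets thus placed Dusp3 within 0.12 log2 of equality.

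Counted by probe set, 13 of the 15 were above background, each on both arrays, and 2 were below it on both. The differences of the 13 ran from -0.17 to 0.44 with a median of 0.01, and 0 of them passed 2-fold, against 1.95% of all probe sets with 1 symbol above background. The 4 genes with several probe sets were Dusp3, Dusp7, Dusp10 and Dusp16. For the other 5 the value rests on 1 probe set.

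**Figure D2:**
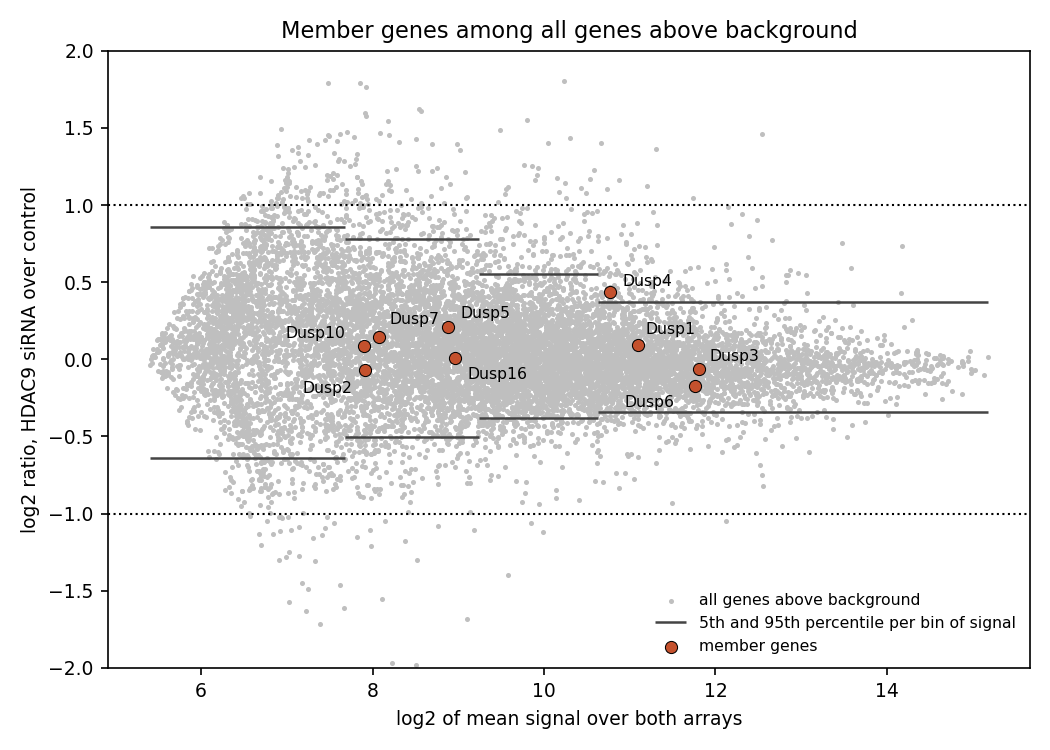
Log2 ratio, HDAC9 siRNA over control, (vertical axis) against the log2 mean signal (horizontal axis) for 12090 genes above background in grey and the 9 phosphatase genes as labelled points, with solid lines at the 5th and 95th percentiles of each of 4 bins of mean signal and dotted lines at 2-fold. Dusp4 lies above the 95th percentile of its bin, near the lower edge of that bin, and the other 8 lie between the lines. The 3 genes beyond a log2 ratio of 2 are outside the plotted range.

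Relatives outside the group were read on the same arrays. Dusp8 and Dusp9 also encode MAP kinase phosphatases. Dusp8 went from 6.93 to 7.24 by its only probe set above background, a difference of 0.31. Dusp9 was below background on the control array, at 5.61, and at 7.03 on the HDAC9 siRNA array, so its 0.69 is a bound. Its second probe set gave a bound of 0.12. Of 15 atypical dual-specificity phosphatase and slingshot genes above background, of 18 measured, 0 passed 2-fold and 10 were above 0, with a median of 0.13. The highest was Dusp23 (a bound of 0.94) and the lowest Dusp28 (-0.27). Dusp14, chosen after its values were seen, went from 7.51 to 8.16, a difference of 0.66.

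The kinases that these phosphatases act on and their upstream activators were read in the same way. Of all genes above background, 1.81% passed 2-fold, so counts of 0 or 1 in such short lists are near the background. Some genes of these lists were not analysed here. Of 10 MAP kinase genes above background, 0 passed 2-fold, 6 were above 0, and the median was 0.18, which was 0.012 with the lower floor tried. Mapk12, a p38 isoform, was highest at 0.62 and Mapk13, another, lowest at -0.29. Mapk14, the main p38 kinase, was chosen after its values were seen and had a difference of -0.05, with its other 5 probe sets above background between -0.50 and 0.10, both of these bounds. Of 6 MAP kinase kinase genes, 0 passed 2-fold, with values from -0.10 (Map2k6, a bound) to 0.42 (Map2k5) and a median of 0.09. The other 3 probe sets of Map2k5 had differences of 0.24, 0.16 and -0.58. Of 19 MAP3 kinase and Ras-side genes, 1 passed 2-fold, Map3k10, a JNK-pathway kinase, which went from 6.77 to 7.93 (1.16). Its second probe set above background had a difference of 0.15, and by the median over its probe sets it did not pass 2-fold. The lowest was Map3k8, the kinase that links Toll-like receptors to ERK, at -0.38, and the list's median was 0.03. Of 7 kinases activated by MAP kinases, 0 passed 2-fold, with Mknk2 at 0.51 (0.41 by its second probe set), Rps6ka3 at -0.27 (0.05 by its second above background) and a median of 0.11.

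**Figure D3:**
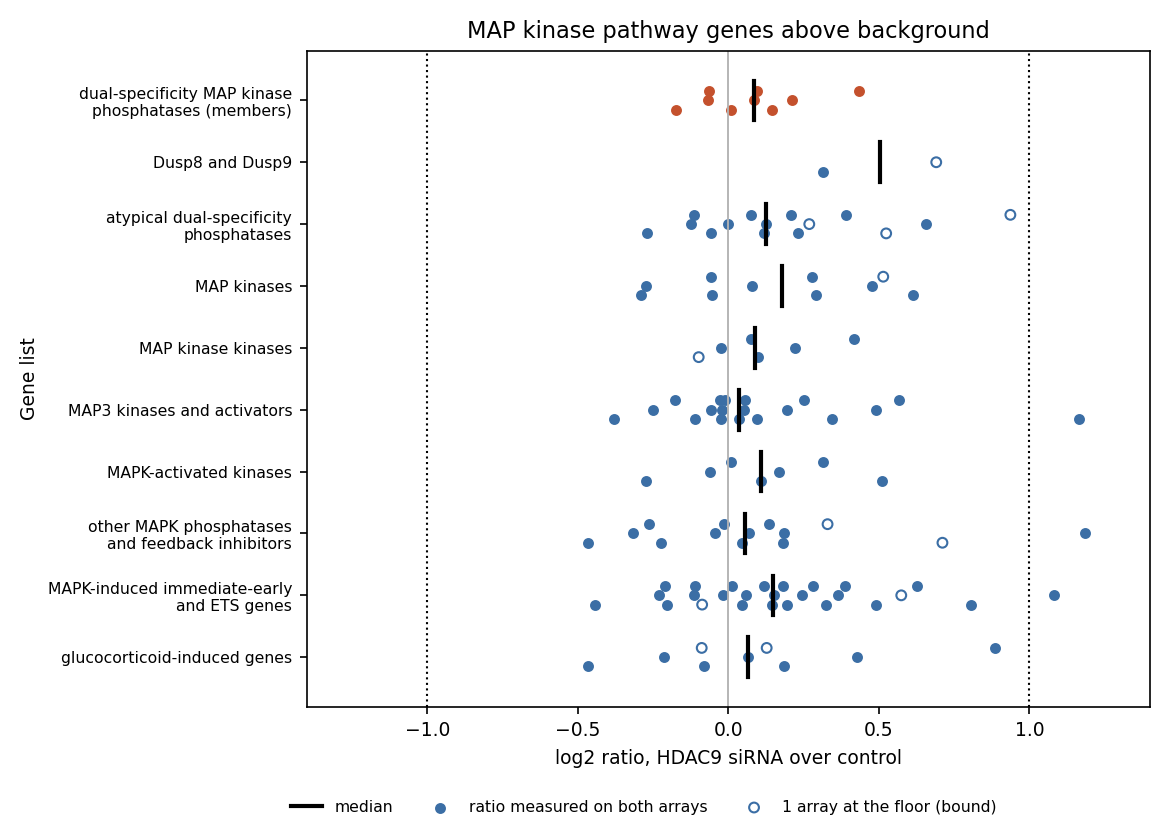
Log2 ratio, HDAC9 siRNA over control, (horizontal axis) for each gene above background in the phosphatase group (top row) and in 9 gene lists of the pathway (rows), with open circles where 1 array was at the floor, black bars at the medians and dotted lines at 2-fold. The 9 phosphatases lie between -0.17 and 0.44, and Map3k10, Spry4 and Egr1 lie past the 2-fold line on the right.

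Other inhibitors of the pathway and the genes it induces were also read, since several phosphatases belong to the same inducible set. Of 14 other MAP kinase phosphatase and feedback inhibitor genes above background, 1 passed 2-fold, Spry4, a Sprouty inhibitor of ERK signalling. Its log2 signal went from 7.11 to 8.29, a difference of 1.18, and its other 2 probe sets above background gave bounds of 0.74 and 0.30 in the same direction. The median over its probe sets, 0.74, did not pass 2-fold, but it is itself a bound, so it does not show a difference under 2-fold. Errfi1 was lowest at -0.47, or -0.07 by its second probe set, and the list's median was 0.06.

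Of 26 immediate-early and ETS-family genes above background, 1 passed 2-fold, Egr1, a zinc finger factor induced through CArG boxes. Its log2 signal went from 9.54 to 10.62, a difference of 1.08 read by 1 probe set. The relative Egr2 was lowest at -0.44, with -0.06 by its second probe set. Of the 26 genes, 18 were above 0, against 54.1% of all genes, and the list's median was 0.15. Csrnp1 (0.81), Fos (0.20), Jun (0.49) and Ier2 (0.14) did not pass 2-fold. They were chosen after their values were seen, and all are from the higher side of the list. Dusp1, Dusp5 and Dusp6, which are induced with such genes, had differences of 0.09, 0.21 and -0.17 on the same arrays. Over the 9 lists together, 3 of 107 genes above background passed 2-fold higher (2.80%) and 0 lower, against 1.81% of all genes in either direction, and the median was 0.10.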

How the data were processed

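The deposited values were log2 signals, 1 column per array, which the authors had made with MAS5, per the submitters' processing notes; the sources used here do not give its version, settings or detection calls. The table held 45037 probe sets. Trimmed by 2% at each end, the mean linear signal was 497 on both arrays, so the authors' scaling was kept. Names came from a platform annotation of 2016: 34945 probe sets had 1 symbol, 932 several and 9160 none, and 34741 of the first matched a RefSeq gene table through gene identifiers. Only those with 1 symbol were used.

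Signals below the floor were raised to it before a ratio was taken, so a ratio is a bound where 1 array was at the floor. Each gene took the values of its brightest probe set by mean linear signal. Scatter was taken over 5671 genes that had at least 2 probe sets above background: the ratios of the 2 brightest were subtracted, and the standard deviation of this difference was scaled to a single probe set by the square root of 2. The arrays' number limits precision. Named were all members, Hdac9, cell type markers, and genes past 2-fold or at the ends of each list. The 3 genes nearest to the member with the widest difference were named too. Other genes are said to have been chosen later. The members and lists were chosen with earlier results of these data known. Alternatives covered scaling, floor, probe set choice and threshold. Python 3.11.15, pandas 2.3.3 and statsmodels 0.14.6 were used, and the steps were tested on simulated data.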

Additional observations from a re-analysis of the deposited data

How the results depend on the processing

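The count of phosphatase genes past 2-fold was 0 under each of 10 alternatives, which changed the scaling (median centring, quantile, loess), the floor (75th percentile, 99th percentile, or none and a pseudocount of 1), the probe sets (their median, or none whose name ends in _a_at, _s_at or _x_at) and the threshold (1.5-fold, 3-fold). Without the suffixed probe sets Dusp7 and Dusp16 had no value. The count of their probe sets past 2-fold was 1 with no floor, by 1417163_at of Dusp10, whose signals both lay below the floor. Of 70 alternative values for single members, 70 stayed within 0.29 log2 of the first, but many of these could not move. Those under the 75th and 99th percentile floors could not. Nor could those without the suffixed probe sets, since the brightest probe set of each gene kept had no suffix. By the median over probe sets, genes with 1 probe set above background could not move either. With no floor, the pseudocount of 1 was small beside these signals. The count therefore bears mainly on the scaling. Dusp4 ran from 0.44 to 0.49 and Dusp6 from -0.17 to -0.12. Dusp16 turned to the other sign in 2 of 7 and Dusp10 in 1 of 8.

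Of all genes, 658 passed 2-fold higher and 259 lower under the 75th percentile floor, 116 and 21 under the 99th, and 2223 and 1481 with no floor; 944 and 337 passed 1.5-fold, and 10 and 6 passed 3-fold. For the gene lists, 22 of 90 alternative counts and 7 of 72 alternative medians moved. Past 2-fold with the 75th percentile floor and with none were 2 and 3 atypical phosphatases, 1 and 2 MAP kinases, 2 and 4 feedback inhibitors, 3 and 4 immediate-early genes, and 1 and 1 of Dusp8 and Dusp9. By the median over probe sets, 0 MAP3 kinase and 0 feedback inhibitor genes passed 2-fold, so Map3k10 and Spry4 were no longer called. For Spry4 that median, 0.74, is a bound, so it does not show a difference under 2-fold. The median of the MAP3 kinase list was below 0 in 3 of 8 alternatives and that of the atypical phosphatases in 1 of 8. That of the MAP kinases fell to 0.012 with the lower floor, with no floor and without the suffixed probe sets. The cause of these shifts was not tested. No paired analysis was possible because each group had 1 array.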

Other observations

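Glucocorticoids induce Dusp1, so other genes that they induce were read on the same arrays. Of 9 such genes above background, 0 passed 2-fold, 5 were above 0 and the median was 0.06. Fkbp5, which encodes a co-chaperone of the glucocorticoid receptor complex, was highest. Its log2 signal went from 8.33 after control siRNA to 9.21 after HDAC9 siRNA, a difference of 0.89, and its second probe set above background gave a bound of 0.97. Errfi1 was lowest at -0.47, or -0.07 by its second probe set. The next 2 genes were chosen after their values were seen. Tsc22d3, which encodes the leucine zipper protein GILZ, had log2 signals of 12.00 and 11.79, a difference of -0.21. This was within the 0.29 scatter, and its other probe sets above background had differences of -0.16, 0.12 and 0.11, the last a bound. The clock gene Per1 was at 0.43. Genes of this list thus differed in both directions, and Dusp1 lay between them at 0.09.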
